A study of Homo sapiens with 4 samples.

Results

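Mitochondrial ribosomal proteins were represented by 91 of the 34127 non-control probes on the arrays, which named 76 of 27193 genes. They were taken by gene name alone, as every probe whose name in the scanner files was MRPL or MRPS followed by a number and at most 1 letter from A to C. By name, 56 probes of 47 genes belonged to the large subunit (MRPL) and 35 probes of 29 genes to the small subunit (MRPS). The arrays measured THP1 cells, a human monoblastic acute myeloid leukemia line that carries the fusion gene MLL-AF9. Cells were transfected once with 30 nM of an Ambion Pre-miR precursor, either hsa-miR-511-5p (the miR-511 mimic) or negative Control #1 (the control mimic), and RNA was taken on day 2. All cells were kept in DMEM/Ham's F12 medium with low serum and albumin. There were 2 independent experiments with 1 array of each treatment in both, so each treatment had 2 arrays, and no untransfected cells were analysed here. The study asked which genes respond to miR-511, and the comparisons below ask this of the mitochondrial ribosomal proteins and then ask how they differed between the experiments.

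The mitochondrial ribosome is the ribosome of the mitochondrial matrix. It translates the few messages of the mitochondrial genome, which code for core parts of the respiratory chain and ATP synthase. Its ribosomal RNAs come from the mitochondrial genome, while its proteins are encoded in the nucleus, made in the cytosol and imported. Some of these proteins have relatives in bacterial ribosomes and others were added in mitochondria. The small subunit binds and decodes the message, and the large subunit joins the amino acids and feeds the chain to the inner membrane.

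A microRNA pairs with messages mainly through its seed, bases 2 to 8. The mature sequence of miR-511-5p, from RefSeq (GRCh38.p14, chr10:17845122-17845142, plus strand), is shown because it is the treatment, with its seed in capitals.
hsa-miR-511-5p: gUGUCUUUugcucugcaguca

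The DNA letters that pair with this seed are AAAGACA. They were in 0 of the 91 member probes and in 331 of all 34127 non-control probes (0.97%). A probe covers only 60 bases of a transcript, so this says nothing of the rest of the message, and target sites in the messages were not analysed here. A pair of probes for MRPL12, the protein that forms the flexible stalk of the large subunit, is shown because they overlap and so measure nearly the same stretch of coding sequence (hg19, chr17:79673989-79674048 and chr17:79674001-79674060). The 48 bases they share are in capitals.
A_33_P3365810: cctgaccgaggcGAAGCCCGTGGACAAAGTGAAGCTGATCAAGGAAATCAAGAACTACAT
A_23_P170352: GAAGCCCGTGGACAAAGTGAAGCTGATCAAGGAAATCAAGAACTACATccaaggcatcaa

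The first MRPL12 probe read 13.24 and 13.12 log2 signal with the miR-511 and the control mimic in experiment 1, and 13.33 and 13.34 in experiment 2. The second probe read 13.21 and 13.13 in experiment 1, and 13.31 and 13.24 in experiment 2. Their mean signals over the 4 arrays differed by 0.04, and their log2 fold changes (log2FC, miR-511 mimic minus control mimic) were 0.05 ± 0.12 and 0.07 ± 0.10 (SE, limma, 2 against 2 arrays). The other overlapping pair, of MRPL32, a large subunit protein with a bacterial relative, shares 25 bases. Its mean signals were 1.88 apart, with log2FC of 0.03 and -0.01.

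All 91 probes were well above background on all 4 arrays, which is the scanner software's own call, and none was saturated. Signals are given as log2 of the processed signal after quantile normalization, and rank as the percentile among all non-control probes of an array. A probe's signal depends on its own binding strength as well as on its transcript, so ranks describe signal and not the amount of one message against another. The members were among the brighter probes. In experiment 1 their median percentile was 92.3 on the miR-511 array and 92.2 on the control array, and in experiment 2 it was 92.8 on both. On all 4 arrays, 88 members were above the 50th percentile, 76 above the 80th and 56 above the 90th. Of the 76 genes, 71 had a probe above the 80th percentile on every array. Averaged over the arrays, the median percentile was 92.6 for the large and 92.4 for the small subunit, a difference of 0.19 points.

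**Figure D1:**
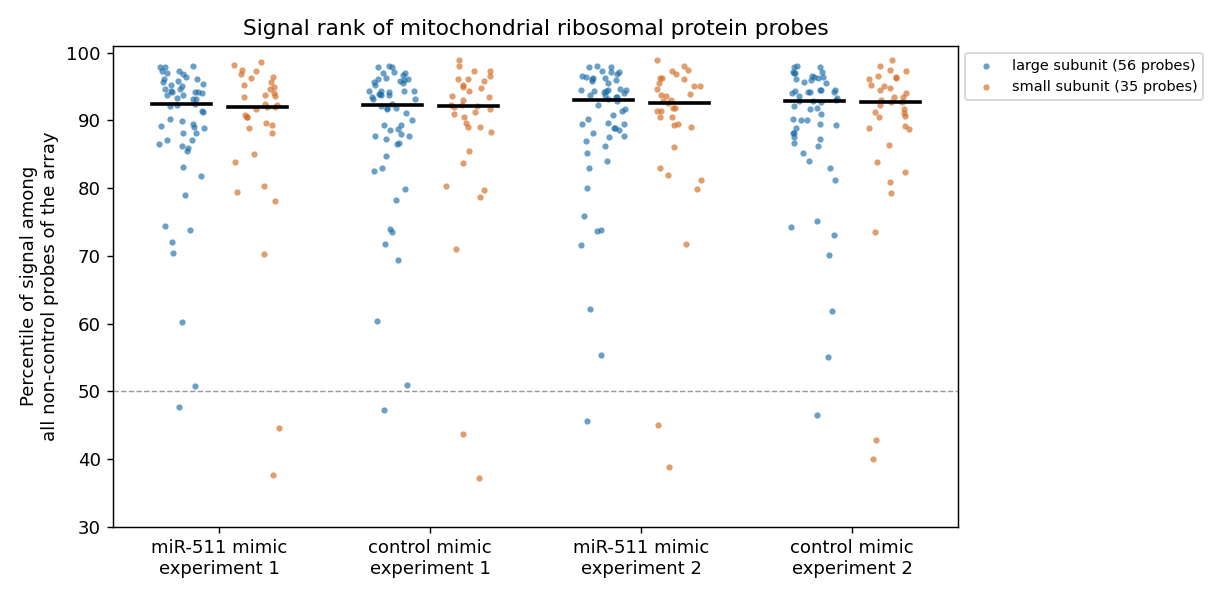
Percentile of the signal of each member probe (vertical axis, among all non-control probes of the array) on each of the 4 arrays, with large subunit probes in blue and small subunit probes in orange. Black bars are medians, which lie between 92.0 and 93.0 for both subunits on every array.

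The brightest members came from both subunits. MRPS24, a small subunit protein near the entry of the message, had a mean percentile of 98.8. It was followed by the brighter of the probes for MRPS16 (98.1), a small subunit protein with a bacterial relative, and by MRPL18 of the central protuberance (98.0). MRPL51 (97.9) and MRPL41 (97.8), which have no bacterial relative, came next. At the other end, the dimmest were additional probes of genes that had a bright probe elsewhere. These were a probe for MRPS17 (38.4), for MRPS18C (44.0), for MRPL43 (46.7) and for MRPL19 (53.0). The next was MRPL1 (61.1), the protein of the L1 stalk, which had 1 probe. The 48 genes with a bacterial relative had a median mean percentile of 93.6 over 57 probes, and the 27 without one had 90.3 over 32 probes. MRPS36, now named KGD4 and assigned to a dehydrogenase complex of the citric acid cycle, was left out of that split. Its probes stood at 96.3 and 80.5.

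Ranks hardly moved between arrays. Over the 4 arrays, 81 members stayed within 2 percentile points and 10 moved by more. The widest were MRPL44, which spanned 7.66 points, and the dimmest MRPL19 probe, which spanned 4.63. The median SD of a member's log2 signal over the 4 arrays was 0.074. It was 0.122 over all 22638 probes tested between treatments, and 0.088 over the 7577 tested probes in the signal range of the members (the 10th to the 90th percentile of their ranks).

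For miR-511 mimic against control mimic, 0 of the 91 member probes passed the first part of the study's threshold, an unadjusted p below 0.05 in limma's moderated test. The study's further condition, a test over identical replicate probes, was not run. Over all 22638 probes tested, 2.2% passed, and of the 7577 in the members' signal range 24 did (0.317%). After Benjamini-Hochberg adjustment over all tested probes, 0% of all probes and 0 members passed, and the smallest unadjusted p of a member was 0.0828 (limma). With the experiment as a block, 0 members passed against 3.95% of all probes. The same comparison without moderation, each probe judged by its own spread, called 3 members at an unadjusted p below 0.05 against 3.13% of all probes, and none after adjustment. They were MRPS2 (log2FC 0.14), MRPL9 (log2FC 0.14) and MRPL10 (log2FC -0.06). With 2 arrays against 2, the smallest two-sided p of an exact permutation test is 0.333.

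The differences were small. The median log2FC of the members was 0.01, beside 0.01 over all tested probes, and the median size was 0.035 beside 0.079. In size, 80 of the 91 log2FC were under 0.1 and 90 were under 0.25. The 95% interval of the log2FC lay between -1 and 1 for 90 members, and between -0.5 and 0.5 for 84, so for most members a change of the size of a 2-fold step was outside the interval. The members whose intervals reached past 0.5 in either direction were MRPL44, MRPL37, MRPS24 and dim probes of MRPL19, MRPS17, MRPS18B and MRPS18C. In direction, 52 members were higher and 39 lower with the miR-511 mimic. The treatments did not overlap for 12 members that were higher on both miR-511 arrays and for 7 that were lower on both. That is 20.9% of the members, beside 25.7% of all tested probes.

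The 2 experiments gave no common direction. The median log2FC was 0.01 in experiment 1 and 0.02 in experiment 2. The sign was the same in both for 44 of 91 members (48.4%), beside 51.0% of all tested probes. Across the 91 member probes, log2FC in experiment 1 and experiment 2 had a Pearson correlation of 0.05 and a Spearman correlation of 0.0047. Without MRPL44, over 90 members, these were 0.098 and 0.0098. Over all 22638 probes tested by treatment they were 0.038 and 0.0028. Each experiment used its own arrays, all normalized together. With 1 array per treatment in each experiment, a difference in treatment effect between experiments could not be tested.

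**Figure D2:**
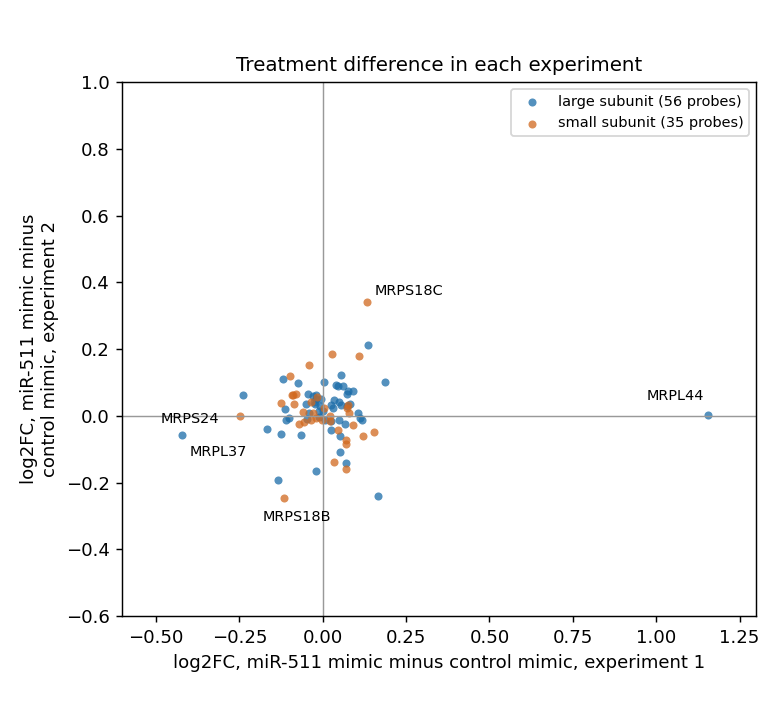
log2FC of each member probe (miR-511 mimic minus control mimic) in experiment 1 (horizontal axis) against experiment 2 (vertical axis), large subunit in blue and small subunit in orange. The members scatter around 0 in both, with MRPL44 at 1.16 in experiment 1 and 0.00 in experiment 2.

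The largest value belonged to MRPL44, a large subunit protein with a ribonuclease III fold (probe at hg19 chr2:224831754-224831813). In experiment 1 it read 11.49 on the miR-511 array and 10.34 on the control array, and in experiment 2 it read 11.36 on both. The control array of experiment 1 stood apart from the other arrays, and the groups did not overlap. The log2FC was 0.58 ± 0.37 (SE, limma, unadjusted p = 0.189, adjusted p = 1.00). It was 0.37 after normexp correction. Without the control array of experiment 1 it was 0.07 ± 0.15. Without the control array of experiment 2 it was 1.09 ± 0.15 with an unadjusted p of 0.00487 in limma, where the lone control array is assumed to vary like the miR-511 arrays. The spot on the control array of experiment 1 had a processed intensity of 1348 (others 2540 to 2900) and carried no mark of a non-uniform or outlying spot. MRPL44 had 1 probe with 1 spot, so no other spot measured it.

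The next highest log2FC with the same sign in experiments 1 and 2 belonged to MRPS18C, MRPL19, MRPS2 and MRPL9, and none passed the test. MRPS18C is 1 of 3 human relatives of a single bacterial protein. Its dim probe read 5.33 and 5.20 (miR-511 and control mimic) in experiment 1, and 5.39 and 5.05 in experiment 2, a log2FC of 0.24 ± 0.10 (limma, unadjusted p = 0.0828), which fell to 0.098 after normexp background correction. Its bright probe read 13.79, 13.83, 13.99 and 13.999 in the same order, a log2FC of -0.02 ± 0.13. The probes of this gene therefore gave opposite signs. A middle probe for MRPL19 read 9.25 and 9.12 in experiment 1 and 9.41 and 9.20 in experiment 2 (log2FC 0.17 ± 0.11, and 0.09 without the miR-511 array of experiment 2). MRPS2, a small subunit protein with a bacterial relative, read 14.29 and 14.18, then 14.31 and 14.13 (log2FC 0.14 ± 0.09). MRPL9, a large subunit protein with a bacterial relative, read 14.57 and 14.38, then 14.53 and 14.43 (log2FC 0.14 ± 0.09). For both of these the miR-511 arrays were higher than the control arrays without overlap.

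Among the lowest, MRPL37, a large subunit protein added in mitochondria, had a pair of probes. One read 13.53 and 13.95 (miR-511 and control mimic) in experiment 1, and 14.06 and 14.11 in experiment 2 (log2FC -0.24 ± 0.21, limma, unadjusted p = 0.320). Its lowest value was on the miR-511 array of experiment 1. Without the miR-511 array of experiment 2 the log2FC was -0.50 ± 0.15 (limma, unadjusted p = 0.0347, the lone miR-511 array being assumed to vary like the control arrays), and without that of experiment 1 it was 0.03. The other MRPL37 probe read 13.76, 13.74, 13.89 and 13.93, a log2FC of -0.01 ± 0.12.

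The dim probe of MRPS18B, another of the 3 relatives, read 9.23 and 9.34 in experiment 1 and 9.42 and 9.67 in experiment 2 (log2FC -0.18 ± 0.16), while its bright probe had 0.03 ± 0.14. The dim probe's value was -0.35 without the control array of experiment 1 and -0.02 without that of experiment 2. The dim probe of MRPL45, which anchors the tunnel exit at the inner membrane, read 10.45 and 10.59, then 10.57 and 10.77 (log2FC -0.16 ± 0.12). This value ran from -0.25 without the control array of experiment 1 to -0.07 without that of experiment 2, and was -0.09 after normexp correction. Its bright probe, printed 10 times on each array, had -0.02 ± 0.09. For each of these genes the larger value came from the dimmer probe. MRPS24 read 15.62 and 15.87 in experiment 1 and 15.996 and 15.997 in experiment 2 (log2FC -0.12 ± 0.16, and -0.32 to 0.07 with an array left out). MRPL46 of the central protuberance read 12.29 and 12.46, then 12.39 and 12.43 (log2FC -0.10 ± 0.10, and -0.05 without the miR-511 array of experiment 1). No call was made for any of them.

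By subunit, 35 of 56 large subunit probes were higher with the miR-511 mimic (median log2FC 0.01) and 17 of 35 small subunit probes were (median 0.00). The medians differed by 0.014, and by 0.0078 to 0.039 with an array left out. This difference was 0.0099 when MRPS18A and MRPS30, which sit in the large subunit, were moved there and MRPS36 was left out. By place in the ribosome, the 5 probes of the stalks and their base (MRPL1, MRPL10, MRPL11 and MRPL12) had log2FC between -0.06 and 0.07. The 6 probes at the tunnel exit (MRPL22, MRPL23, MRPL24, MRPL45 and MRPL47) lay between -0.16 and 0.04. The 9 probes of 8 proteins of the central protuberance lay between -0.10 and 0.05. None was called in any of these groups, beside 2.2% of all tested probes, and groups this small could have no call at that share.

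The 8 members printed 10 times on each array show the error within an array. They were MRPL19, MRPL21, MRPL22, MRPL32, MRPL45, MRPS6, MRPS15 and MRPS23. The SD among spots of 1 probe on 1 array had a median of 0.060 and ran from 0.029 to 0.48, the highest for MRPL19 on the miR-511 array of experiment 1. Their log2FC were between 0.014 and 0.089 in size.

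Between the experiments, experiment 2 minus experiment 1, 6 of 91 members passed the unadjusted threshold in limma (6.59%), beside 14.1% of all 22596 probes tested. All 6 were higher in experiment 2. Over all probes, 5.66% were called higher and 8.46% lower. After adjustment 0% of all probes and 0 members passed (smallest adjusted p of a member 0.169, limma). With treatment as a term in the fit, 2 members were called, the dimmest probe of MRPL19 and 1 probe of MRPS16, beside 11.9% of all probes. Of the 7577 tested probes in the members' signal range, 773 were called (10.2%), 268 higher (3.54%) and 505 lower. The 4 arrays were on 1 slide, and what else changed between the experiments is not given in the labels.

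The dimmest MRPL19 probe (hg19, chr2:75897810-75897869, annotated to an Ensembl transcript and matched to no RefSeq gene) had the largest difference. It read 6.33 and 6.36 (miR-511 and control mimic) in experiment 1 and 7.04 and 6.98 in experiment 2, a log2 difference of 0.67 ± 0.07 (SE, limma, adjusted p = 0.169). It was called in all 13 other settings run for this comparison, though its difference fell to 0.36 after normexp correction, and it passed the adjusted threshold in none. The other MRPL19 probes differed by 0.10 ± 0.08 and 0.12 ± 0.11, and were not called. The dimmer MRPS16 probe read 10.64 and 10.57, then 10.88 and 10.95 (0.31 ± 0.07, limma, adjusted p = 0.266, and 0.53 after normexp correction), while the brighter one read 15.23 and 15.13, then 15.03 and 15.06 (-0.13 ± 0.07). For MRPS16 the direction thus depended on the probe.

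The dim MRPS17 probe read 4.29 and 4.22 in experiment 1 and 4.46 and 4.62 in experiment 2 (0.28 ± 0.09, and 0.085 after normexp correction, where it was not called). It lies at hg19 chr7:55954984-55955043, away from the bright MRPS17 probe at chr7:56022855-56022914, which differed by 0.12 ± 0.07. The dim probe is annotated to an Ensembl transcript and matched no RefSeq gene. MRPL1 read 7.79 and 7.81, then 8.07 and 8.02 (0.25 ± 0.07). MRPL15, a large subunit protein with a bacterial relative, read 12.74 and 12.65, then 12.95 and 12.88 (0.23 ± 0.08). The sixth call, named here because it completes the count, was MRPS9 of the small subunit, which read 12.16 and 12.17, then 12.35 and 12.36 (0.19 ± 0.07). For all 6 probes both arrays of experiment 2 were above both of experiment 1. Of the 13 other settings, MRPS16 was called in 11, MRPL1 in 8, MRPS9 in 7, and MRPL15 and MRPS17 in 6 each. Leaving out 1 array brought the count of calls to between 1 and 4. Of the 6 probes, the MRPL19 probe alone was called without either control array, it and MRPS16 without the miR-511 array of experiment 1, and these and MRPS17 without that of experiment 2. The calls that those fits added were MRPL37 and MRPS24, MRPL44, and the dim probe of MRPS18B.

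Small differences in 1 direction were common among the members. The log2 difference was above 0 for 68 of 91 (74.7%), beside 47.5% of all tested probes. Its median was 0.09, beside -0.01 over all tested probes and -0.01 over those in the members' signal range. The members' median was 0.09 on the miR-511 arrays and 0.07 on the control arrays. Both arrays of experiment 2 were above both of experiment 1 for 49 members (53.8%, beside 22.6% of all tested probes) and below both for 7 (beside 26.8%). Most of these differences were not called for the single probe. The median stayed between 0.070 and 0.116 under every other scaling, filter, source of values and omitted array. Across the 91 members, the difference on the miR-511 arrays and that on the control arrays had a Pearson correlation of 0.36 and a Spearman correlation of 0.48. Without MRPL44, over 90 members, they were 0.58 and 0.53. Over all 22638 probes tested by treatment they were 0.27 and 0.32.

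**Figure D3:**
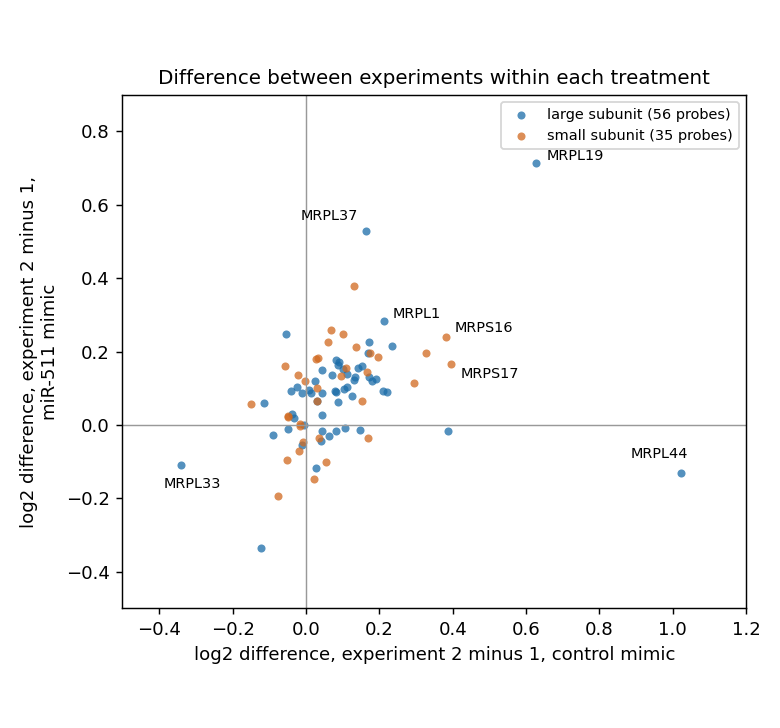
log2 difference of each member probe between the experiments (experiment 2 minus experiment 1) on the control mimic arrays (horizontal axis) and on the miR-511 mimic arrays (vertical axis). Most members lie above 0 on both axes, the dimmest MRPL19 probe farthest, and MRPL44 lies apart at 1.02 on the control arrays and -0.13 on the miR-511 arrays.

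By subunit, 45 of 56 large and 23 of 35 small subunit probes were higher in experiment 2, with medians of 0.09 and 0.07. The difference of the medians was 0.025, but it turned to -0.012 after 75th percentile scaling and to -0.0011 after normexp background correction, and ran from -0.020 to 0.026 with an array left out, so neither subunit was ahead under all settings. The small subunit median was 0.12 on the miR-511 arrays and 0.04 on the control arrays. The 57 probes with a bacterial relative had a median difference of 0.10 and the 32 without one 0.06, in groups formed after the values were seen, and this difference was not tested. The highest uncalled values were those of MRPL44 (0.45 ± 0.41) and MRPL37 (0.35 ± 0.16). On the control arrays MRPL44 rested on the same low value of experiment 1, and without that array its difference was -0.13. MRPL44 was called in limma after normexp correction (0.72) and without the miR-511 array of experiment 1 (1.03), which leaves the low control array alone in experiment 1. MRPL37 was called without the control array of experiment 1 (0.55), which leaves its low miR-511 array alone in experiment 1. This probe differed by 0.53 on the miR-511 arrays and by 0.16 on the control arrays. The other MRPL37 probe differed by 0.16 ± 0.07 and was not called.

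The other 23 members were lower in experiment 2, 10 of them on both treatments. The dim probe of MRPL43, a large subunit protein added in mitochondria, read 5.85 and 5.78 in experiment 1 and 5.51 and 5.65 in experiment 2 (-0.23 ± 0.09), and its bright probe had 0.05 ± 0.07. MRPL33, a short protein of the large subunit with a bacterial relative, named here after its values were seen, read 13.12 and 13.24, then 13.01 and 12.90 (-0.22 ± 0.09). For both, experiment 2 was below experiment 1 without overlap, and neither was called here. MRPL43 was called under 75th percentile scaling (-0.28) and was -0.07 after normexp correction, and MRPL33 was called with an intensity trend (-0.22) and after normexp correction (-0.26).

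Of the 3 relatives MRPS18A, MRPS18B and MRPS18C, the first belongs to the large subunit by structure. MRPS18A read 12.36 and 12.45 in experiment 1 and 12.54 and 12.48 in experiment 2. The bright probe of MRPS18B read 13.04 and 12.92, then 13.15 and 13.21. Between experiments these differed by 0.10 ± 0.08 and 0.20 ± 0.08, and the bright probe of MRPS18C by 0.18 ± 0.07. The last was not called here but was called under 75th percentile scaling, normexp correction, the stricter filter, an intensity trend, without moderation, with marked spots kept and in the deposited table, where it was 0.18 to 0.22. The bright MRPS18B probe was called under 75th percentile scaling (0.24), with an intensity trend (0.20) and after normexp correction (0.39). By treatment the 3 bright probes had log2FC of -0.01, 0.03 and -0.02.

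Where a gene had several probes, they often differed in signal by more than any comparison here. Of the 76 genes, 14 had several probes, which made 16 pairs. In 12 pairs the signals were over 2 log2 units apart, up to 8.66 for MRPS18C and 8.37 for MRPS17. By treatment, 7 pairs had opposite signs and 11 pairs were within 0.1 of each other. Between experiments, 4 pairs had opposite signs. Of the 6 probes called between experiments, those of MRPL19, MRPS16 and MRPS17 were the dimmer probes of their genes. Which transcript forms the dimmer probes bind was not tested.

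**Figure D4:**
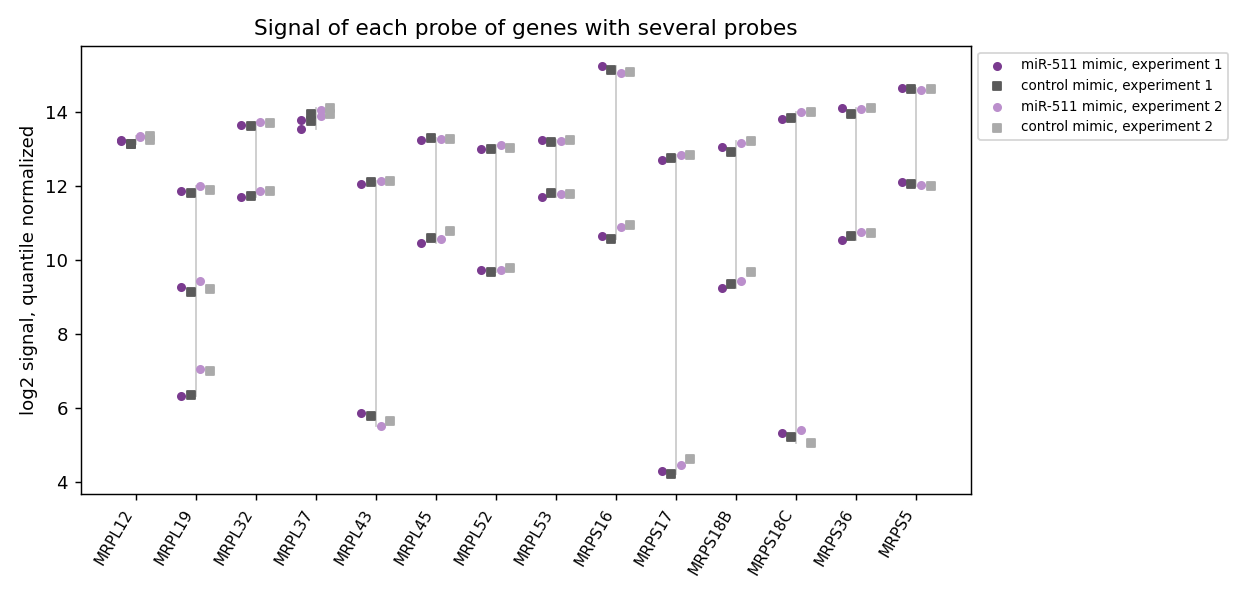
log2 signal on each of the 4 arrays (vertical axis) for every probe of the 14 genes with several probes, circles for the miR-511 mimic and squares for the control mimic, dark for experiment 1 and light for experiment 2. Probes of a gene lie up to 8.66 log2 units apart, while the 4 arrays of each probe lie close together.

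Other genes of the same pathway had no call by treatment either, beside 2.2% of all probes tested. Lists this short could have no call at that share, so this does not set them apart from other genes. Mitoribosomal proteins that carry other names (7 of 7 genes on the array, 8 probes) include DAP3, a GTP-binding small subunit protein, PTCD3, a small subunit protein that binds RNA, and ICT1, a release factor built into the large subunit. None was called, and their log2FC lay between -0.23 and 0.05. Mitochondrial translation factors (17 of 17 genes, 23 probes), such as TUFM, the elongation factor that brings the tRNA, had log2FC between -0.14 and 0.19 and no call. Assembly and ribosomal RNA factors (26 of 28 genes, 32 probes), such as TFB1M, which methylates the small subunit RNA, lay between -0.27 and 0.27 with no call. Between experiments, 0 of 8, 0 of 23 and 1 of 32 probes were called, beside 14.1% of all probes, and 6, 18 and 18 of them were higher in experiment 2. The one was a probe for MTERFD2, which works with an RNA methyltransferase in assembly, at 0.26 ± 0.09, and its other probes at 0.13 and 0.08 were not called.

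The nuclear-encoded respiratory chain and the cytosolic ribosomal proteins were compared as the groups most like the members. By treatment neither had a call, in 100 and 153 probes tested, beside 2.2% of all probes, and their median log2FC were -0.01 and -0.02. Their probes were bright, with median percentiles of 97.3 and 99.6. In the members' signal range 0.317% of tested probes were called, and groups of this size could have no call at that share. Between experiments the respiratory chain was close to the members, with 75 of 100 probes higher, a median of 0.07 and 6 calls, all higher. The cytosolic ribosomal proteins had 63 of 153 higher, a median of -0.02 and 7 calls, 1 higher and 6 lower. Over all probes tested between experiments, 14.1% were called. The distance between the members and the cytosolic group was not tested, since genes are not replicates.

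**Figure D5:**
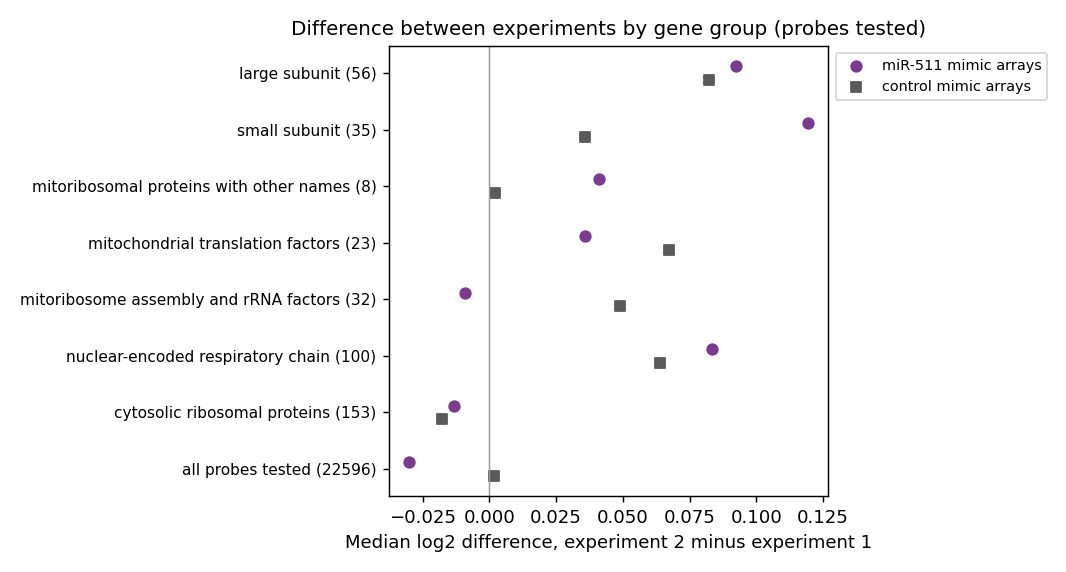
Median log2 difference between experiments (experiment 2 minus experiment 1, horizontal axis) on the miR-511 mimic arrays (circles) and on the control mimic arrays (squares) for each gene group, with the number of probes tested in brackets. Both subunits and the respiratory chain lie above 0 on both treatments, while cytosolic ribosomal proteins lie below 0 on both.

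Promoters of the members were searched for short motifs named after factors known for housekeeping and mitochondrial genes. Whether the motifs bear on the difference between experiments was not tested. RefSeq windows of 300 bases (GRCh38.p14, 250 before to 50 after the start of transcription) were at hand for 68 of the 76 genes. Motifs were searched as exact letters on both strands, and a promoter counted once. GCGCATGCG, after NRF1, was in 3 of 68 member promoters (4.41%) and 1.92% of all 35116 promoters. Its letters overlap with their own reverse complement. CCGGAAGT, after the ETS family, was in 11 (16.2%, beside 4.14%). AAGATGGCG, after YY1, was in 13 (19.1%, beside 1.75%). These letters stood before the start only in MRPL32, MRPL36 and MRPL52. In the other promoters that held them they began at base 7 to 36 of the transcript. CACGTG, the E-box, was in 7 (10.3%, beside 7.26%). At least 1 of the first 3 was in 24 member promoters, and 3 promoters held 2 of them. A match describes letters and not a bound factor.

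Some stretches upstream of the start are shown as examples of these motifs, in capitals and on the gene's own strand, from genes whose values are given here or that hold a motif more than once. The MRPL52 stretches are chr14:22829773-22829813 and chr14:22829807-22829847 (plus strand), MRPL51 is chr12:6493359-6493398 (minus strand), MRPS22 is chr3:139343898-139343937 (plus strand) and MRPS18C is chr4:83455906-83455946 (plus strand).
MRPL52 YY1 first: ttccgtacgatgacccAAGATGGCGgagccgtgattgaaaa
MRPL52 YY1 second: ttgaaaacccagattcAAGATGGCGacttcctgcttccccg
MRPL51 ETS: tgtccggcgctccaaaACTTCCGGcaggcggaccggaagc
MRPS22 ETS: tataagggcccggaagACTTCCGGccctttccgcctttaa
MRPS18C NRF1: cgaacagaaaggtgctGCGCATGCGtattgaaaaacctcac

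The motifs begin 98 and 64 bases before the start in MRPL52, 120 in MRPL51, 80 in MRPS22 and 136 in MRPS18C. In MRPL51 and MRPS22 the ETS letters stand as their reverse complement. MRPS22, a small subunit protein without a bacterial relative, read 12.68 and 12.72 in experiment 1 and 12.90 and 12.85 in experiment 2, with a log2FC by treatment of 0.00 ± 0.12. MRPL52 had log2FC of 0.05 and 0.00 at its probes, and MRPL51 of 0.02 ± 0.09.

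On the arrays as a whole, 64.8% to 69.3% of probes were well above background. Of the THP1 markers checked, 8 of 9 were well above background on all arrays, among them CD33, SPI1, MPO and HOXA9, and MEIS1 was on 2. Among markers of other cells, GATA1, EPCAM, ALB and COL1A1 were well above background on no array, and CD3E was on 3 arrays. In RNA from a whole culture, fewer cells making a transcript and less of it per cell cannot be told apart.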

How the data were processed

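RNA of 4 THP1 cultures was labelled with Cy3 and hybridized to Agilent Human Whole Genome Microarrays 4x44K v2, 1 array each. The authors deposited 1 scanner file per array, whose processed intensity is background-subtracted within the array, and a table of log2 values which the authors had quantile normalized. The labels name Feature Extraction 10.5.1.1 and the file headers 10.7.3.1. Probe positions are those of the files (hg19).

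In R 4.3.3 with limma 3.58.1, log2 processed intensities of 43118 non-control spots were quantile normalized. Spots marked non-uniform or as population outliers (232 to 301 per array) were left out, and spots of a probe were averaged. A probe was tested if at least 1 of the groups compared had it well above background on both of its arrays. lmFit and eBayes compared treatments (4.14 total degrees of freedom) and experiments (3.98), without a block, since the study's methods name none. P-values are two-sided, unadjusted at 0.05 or Benjamini-Hochberg adjusted over all tested probes. Python 3.11.15 was used for summaries.

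The titles number the experiments, so arrays with the same number are paired. Their deviations from the treatment means correlated at 0.27 over 22638 probes. The functions were tested on simulated data. Of the 91 probes, 89 matched a RefSeq gene by accession (GRCh38.p14, used for names), and 2 of these have a new symbol. The unmatched were the dimmest MRPL19 probe and the dim MRPS17 probe, both called between experiments. Their gene names are those of the scanner files alone. The number of arrays limits the precision.

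The members and lists were chosen with earlier results of these data known. Named were members past a threshold, the 5 highest and 5 lowest log2FC with the same sign in both experiments, the 5 largest differences between experiments in each direction among members past the unadjusted threshold (none was lower), the 5 highest and 5 lowest ranks, probes of a gene that disagree by over 0.3, MRPS18A to MRPS18C, MRPL12, MRPS36, and probes printed 10 times. The groups by place in the ribosome and by bacterial relative were added after the values were seen. Alternatives were 75th percentile scaling, normexp with an offset of 50, no filter, a stricter filter (well above background on all 4 arrays), marked spots kept, the deposited table, the experiment or treatment as a term, an intensity trend, limma's fit without moderation, 1 probe a gene, subunits by structure, and each array left out. One marker of other cells is not reported here.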

Additional observations from a re-analysis of the deposited data

How the results depend on the processing

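By treatment, the count of members called stayed at 0 under every setting but the fit without moderation (3) and the omission of an array (0 to 1). The replicate block, the experiment number, left it at 0 and changed no other call of a member by treatment. The median log2FC ranged from -0.029 to 0.050 when an array was left out, and from 0.0058 to 0.0098 otherwise, so it had no settled direction. Large minus small subunit by treatment was 0.012 after 75th percentile scaling, 0.0099 by structure and 0.0078 to 0.039 with an array left out. Between experiments the count of 6 (beside 14.1% of all probes) became 12 after 75th percentile scaling (beside 14.6%), 14 after normexp correction (14.3%), 16 with an intensity trend (15.1%), 16 without moderation (11.5%), 2 with the treatment term (11.9%), 0 after adjustment (0%) and 1 to 4 with an array left out (8.60% to 15.1%). The median rose to 0.116 after 75th percentile scaling and was 0.070 to 0.106 with an array left out. No scaling moved the median of all probes by over 0.1. Among single members, normexp correction turned MRPL51 by treatment to -0.12, and between experiments MRPL18 to 0.022 and MRPL41 to 0.045. Omitting an array turned signs by treatment, with ranges of -0.50 to 0.026 for MRPL37, -0.32 to 0.069 for MRPS24, -0.34 to 0.37 for the dimmest MRPL19 probe, -0.19 to 0.19 and -0.25 to 0.15 for the dim MRPS16 and MRPS17 probes, -0.20 to 0.13 for the dim MRPL43 probe and -0.11 to 0.18 for the bright MRPS18B probe. Between experiments MRPL44 ranged from -0.13 to 1.03 and the dim MRPS18C probe from -0.21 to 0.13. The cause was not tested. All members were well above background on all 4 arrays, so none has only a bound.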
